A study of Mus musculus with 4 samples.

Results

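The genes described here are the 3 D-type cyclins (Ccnd1, Ccnd2, Ccnd3), their partner kinases (Cdk4, Cdk6) and 5 inhibitors of cyclin-dependent kinases (Cdkn1a, Cdkn1b, Cdkn1c, Cdkn2a, Cdkn2c). They were picked by gene symbol, and all 10 were found among the 54532 genes of the deposited expression table. RNA was sequenced from pancreatic islets, the hormone-secreting cell clusters of the pancreas, of male C57BL/6 mice 10 to 12 weeks old. Islets that carried a miR-29a/b-1 transgene, overexpressed only in beta cells per the series title, gave 2 libraries (transgenic 1 and 2), and wild-type islets gave 2 (wild type 1 and 2). The promoter behind the transgene, the number of mice per library and whether replicates were separate animals are not given in the sources used here, so p-values measure only the spread between these libraries. Levels are in FPKM, a read measure divided by gene length and by library size, so genes can be set against each other. RNA came from whole islets, so fewer cells of a type and less RNA per cell cannot be told apart.

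D-type cyclins bind Cdk4 or Cdk6, and the active pair phosphorylates the retinoblastoma protein, which releases E2F transcription factors and lets a cell enter S phase. Inhibitors of the INK4 family, encoded by the Cdkn2 genes, bind the kinases and keep the cyclin off. Inhibitors of the CIP/KIP family, encoded by the Cdkn1 genes, bind cyclin and kinase complexes. In mouse islets, cyclin D2 and Cdk4 are known to be needed for the growth of beta cell mass after birth, and p16Ink4a, a product of Cdkn2a, is known to accumulate in beta cells with age.

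Both microRNAs of the transgene, and the related miR-29c, share 1 seed, the stretch of bases 2 to 8 through which a microRNA pairs with its targets. The mature sequences below, from RefSeq on GRCm38.p6, have the seed in capitals and are shown because the same 7 bases decide which D cyclin and inhibitor genes can be matched.
miR-29a-3p: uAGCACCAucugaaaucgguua
miR-29b-3p: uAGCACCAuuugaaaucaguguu
miR-29c-3p: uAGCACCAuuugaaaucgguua
Mature microRNAs are too short for this kind of library, and the level of miR-29 was not measured here.

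The 3' untranslated region of each gene, taken as the longest one annotated in GENCODE M21, was searched for TGGTGCT, the bases that pair with this seed, on the transcript strand. Of the 10 genes, 3 held a match. Cdk6 held 3 matches in 10217 bases, Ccnd2 held 2 in 5173 bases, and Cdkn1a held 1 in 1334 bases. The match stands in capitals in the windows of 30 bases below, given on GRCm38 from 5′ to 3′ of the transcript.
Ccnd2 site 1 (chr6:127129391-127129420, minus strand): acccctaactttTGGTGCTgattagcatgt
Ccnd2 site 2 (chr6:127127746-127127775, minus strand): actgagtctggtTGGTGCTgagtctacagc
Cdk6 site 1 (chr5:3529648-3529677, plus strand): gacctgtcccttTGGTGCTtcccatctcct
Cdk6 site 2 (chr5:3529789-3529818, plus strand): agagataataccTGGTGCTgggcacagaat
Cdk6 site 3 (chr5:3530107-3530136, plus strand): gatgctctgtttTGGTGCTttgggttcagc
Cdkn1a site (chr17:29100682-29100711, plus strand): cgaccccaaagcTGGTGCTcaataaatact
Of the compared genes with an annotated 3' untranslated region of at least 50 bases, 15.6% held this match, and of those with at least 5000 bases 47.6% did, so a match in regions as long as those of Ccnd2 and Cdk6 is common. A match is a description of letters and not a shown site, and which 3' ends islets use was not examined. Ccnd1, Ccnd3, Cdk4, Cdkn1b, Cdkn1c, Cdkn2a and Cdkn2c held none in these regions.

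Depth was 21670854 to 27080907 reads in genes per library. Libraries with the same number resembled each other more than libraries of the same genotype: across the 12716 genes compared (those that reached an FPKM of 1 in 2 or more libraries), Pearson's r of log2(FPKM + 1) was 0.985 for transgenic 1 with wild type 1 and 0.989 for transgenic 2 with wild type 2, against 0.950 within either genotype, with genes as points that are not independent. What the number stands for is not given. The labelled tissue matched its markers: the 10 beta cell genes listed summed to 151540 to 286857 FPKM and Gcg, Sst and the other non-beta hormone genes were present, while the 18 acinar genes, of the exocrine pancreas, summed to 6696 and 1824 FPKM in transgenic 1 and 2 and to 4991 and 1057 FPKM in wild type 1 and 2.

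Ccnd2 (chromosome 6, 127125162 to 127152193), which encodes cyclin D2, had the highest level of the 10 genes in every library. It reached 53.6 and 72.1 FPKM in transgenic 1 and 2, against 49.2 and 75.8 FPKM in wild type 1 and 2. Both transgenic values lay between the wild-type ones. The reads behind each value ran from 11039 in wild type 1 to 18480 in wild type 2. Cyclin D2 RNA made up 63.7% and 78.9% of the summed FPKM of the 3 D cyclins in transgenic 1 and 2, against 62.2% and 80.9% in wild type 1 and 2.

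Ccnd1 (chromosome 7, 144929931 to 144939925), which encodes cyclin D1, a cyclin that growth factors induce in many cells, was at 26.2 and 15.3 FPKM in transgenic 1 and 2, against 26.1 and 14.2 FPKM in wild type 1 and 2. The libraries numbered 1 were high and those numbered 2 low, in either genotype. The gene overlaps Oraov1 on the opposite strand, which had 476 to 675 reads per library, against 1509 to 3184 for Ccnd1. Ccnd3 (chromosome 17, 47505051 to 47599691), the gene of cyclin D3, was far lower, at 4.36 and 3.99 FPKM in transgenic 1 and 2, against 3.68 and 3.60 FPKM in wild type 1 and 2. Its genotypes did not overlap, with transgenic higher, as in 12.2% of the genes compared (9.03% with transgenic lower). It was the only such gene of the 10. It shares sequence with Bysl on the opposite strand (449 and 216 reads in transgenic 1 and 2, 332 and 253 in wild type 1 and 2), and whether counting used strand is not given.

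The summed D cyclin RNA came to 84.2 and 91.3 FPKM in transgenic 1 and 2, against 79.0 and 93.6 FPKM in wild type 1 and 2. Its mean was 87.7 ± 5.05 FPKM in transgenic and 86.3 ± 10.3 FPKM in wild-type islets (SD, n = 2 each), a difference smaller than either SD. With 2 libraries on each side the smallest 2-sided p of an exact permutation test is 0.333, so such sums were not tested. The ratio of Ccnd2 to Ccnd1 FPKM was 2.04 and 4.72 in transgenic 1 and 2, against 1.88 and 5.32 in wild type 1 and 2.

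**Figure D1:**
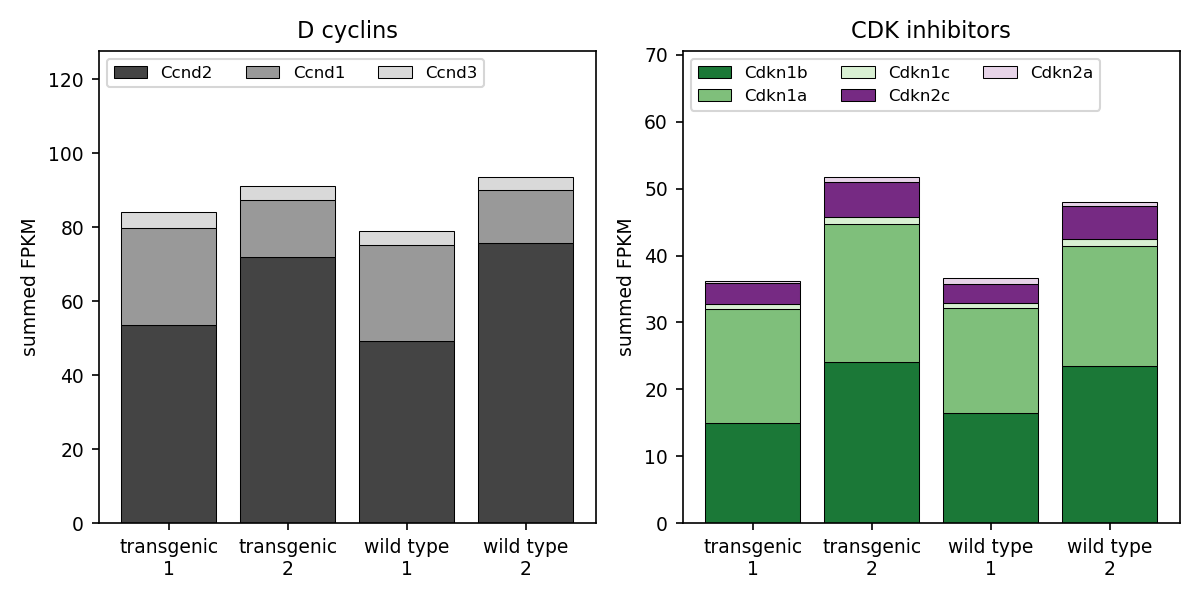
Summed FPKM of the D cyclin genes (left) and of the 5 CDK inhibitor genes (right) in each of the 4 libraries, on axes from 0. Cyclin D2 takes 62.2% to 80.9% of the D cyclin bars, and the bars of the libraries numbered 2 hold less Ccnd1 and more Cdkn1b in both genotypes.

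The kinases were very unequal. Cdk4 (chromosome 10, 127063534 to 127067920) was at 38.6 and 34.0 FPKM in transgenic 1 and 2, against 38.2 and 35.1 FPKM in wild type 1 and 2, the smallest spread among the 5 genes of the set above 10 FPKM. It overlaps Tspan31 on the opposite strand, which had 1000 to 1129 reads per library. Cdk6 (chromosome 5, 3341485 to 3531008), whose kinase can replace Cdk4 in other tissues, was at 0.128 and 0.102 FPKM in transgenic 1 and 2, against 0.117 and 0.0800 FPKM in wild type 1 and 2. These values rest on 46 and 30 reads in the transgenic libraries and 39 and 29 in the wild-type ones. Cdk4 exceeded Cdk6 by 303 and 334 times in transgenic 1 and 2, and by 327 and 439 times in wild type 1 and 2.

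The Cdk6 values were above the level that 3 reads would give (0.00827 to 0.0102 FPKM), but too low for the comparison of genes. The exact 95% Poisson interval of transgenic 2, 0.0689 to 0.146 FPKM, overlaps that of wild type 2, 0.0535 to 0.115 FPKM. The same holds for transgenic 1, 0.0934 to 0.170 FPKM, and wild type 1, 0.0831 to 0.160 FPKM. Such intervals cover counting error only. A difference in Cdk6 between genotypes was not detectable at this depth. Its log2 ratio of transgenic to wild type was 0.13 in number 1 and 0.35 in number 2. The approximate 95% counting half-widths were 0.62 and 0.74, so the direction was not resolved.

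Among the CIP/KIP inhibitors, Cdkn1b and Cdkn1a were abundant and Cdkn1c was not. Cdkn1b (chromosome 6, 134920401 to 134925513), the gene of p27Kip1, an inhibitor typical of resting cells, was at 14.9 and 24.1 FPKM in transgenic 1 and 2, against 16.4 and 23.6 FPKM in wild type 1 and 2. Again the numbers stood apart and the genotypes overlapped, here with the libraries numbered 2 high. Cdkn1a (chromosome 17, 29090976 to 29100727), the p21 gene, which p53 and stress signals induce, was at 17.2 and 20.6 FPKM in transgenic 1 and 2, against 15.8 and 17.8 FPKM in wild type 1 and 2. Transgenic 2 was the highest library, and transgenic 1 lay below wild type 2. Cdkn1c (chromosome 7, 143458339 to 143461050), an imprinted gene that encodes p57Kip2, was at 0.628 and 1.00 FPKM in transgenic 1 and 2, against 0.678 and 1.02 FPKM in wild type 1 and 2. It rests on 33 to 54 reads per library and entered the comparison only through the libraries numbered 2.

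The INK4 inhibitors were low. Cdkn2c (chromosome 4, 109660876 to 109667189), the gene of p18Ink4c, was at 3.18 and 5.28 FPKM in transgenic 1 and 2, against 2.87 and 4.93 FPKM in wild type 1 and 2. Cdkn2a (chromosome 4, 89274471 to 89294653) encodes both p16Ink4a and, in another reading frame, p19Arf, which a value per gene cannot separate. It had 11 and 18 reads in transgenic 1 and 2, against 24 and 20 in wild type 1 and 2, or 0.364 and 0.731 FPKM against 0.858 and 0.658 FPKM. Transgenic 1 was the lowest library. Its exact 95% Poisson interval, 0.182 to 0.651 FPKM, overlaps that of wild type 1, 0.550 to 1.28 FPKM. Overlap of such intervals is not a test of the difference. The log2 ratio of transgenic 1 to wild type 1 was -1.24, with an approximate 95% counting half-width of 1.03. In number 2 the ratio went the other way, at 0.15 with a half-width of 0.92. Each ratio rests on 1 library per genotype.

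For context, the other genes of the INK4 family are Cdkn2b, the gene of p15Ink4b, and Cdkn2d, the gene of p19Ink4d. Cdkn2b was at 4.55 and 6.03 FPKM in transgenic 1 and 2, against 4.70 and 5.74 FPKM in wild type 1 and 2. Cdkn2d was at 7.22 and 9.46 FPKM in transgenic 1 and 2, against 6.84 and 9.24 FPKM in wild type 1 and 2. Cdkn2d held 44.0% to 47.2% of the INK4 FPKM in the 4 libraries and Cdkn2a 2.38% to 5.62%, so the gene best known for beta cell ageing gave the smallest part of the family's RNA at this age.

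**Figure D2:**
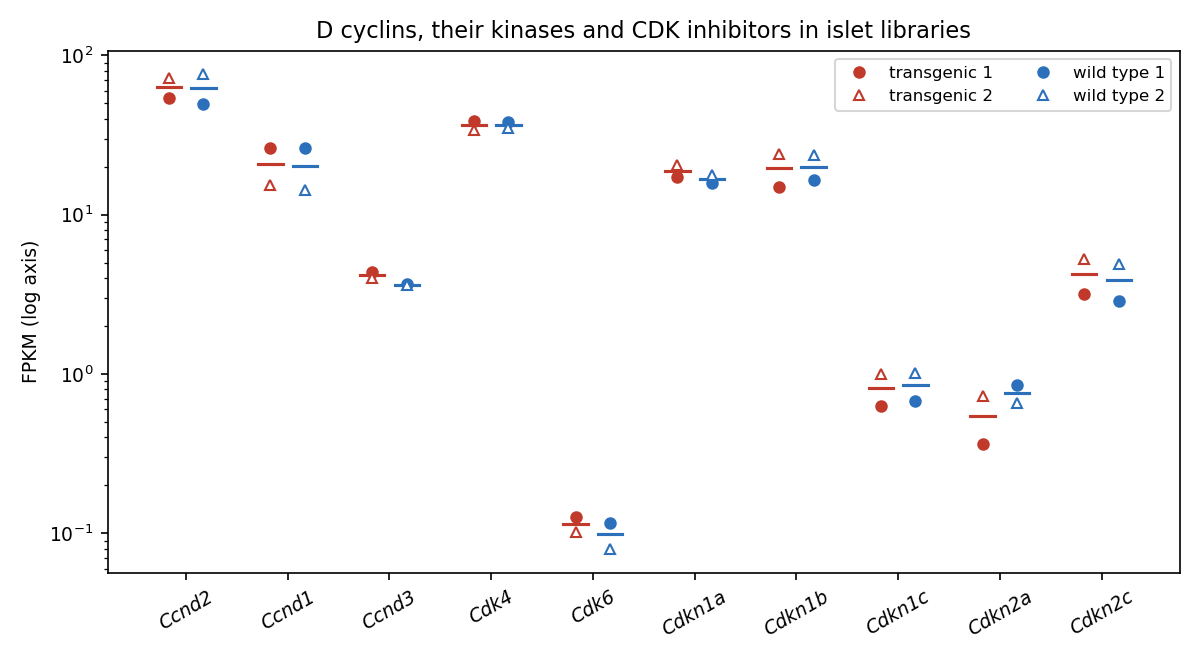
FPKM (log axis) of the 10 genes in each library, transgenic in red and wild type in blue, with circles for libraries numbered 1, open triangles for those numbered 2 and a line at each group's mean. Levels run from 0.0800 FPKM for Cdk6 to 75.8 FPKM for Ccnd2, and triangles and circles separate in the same direction in both genotypes for most genes.

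The order of levels differed between library numbers. In both libraries numbered 1 the order was Ccnd2, Cdk4, Ccnd1, with Cdkn1a and Cdkn1b next and close together, Cdkn1a the higher in transgenic 1 and Cdkn1b in wild type 1. In both numbered 2 it was Ccnd2, Cdk4, Cdkn1b, Cdkn1a, Ccnd1. Below these came Ccnd3 and Cdkn2c, whose order also switched, then Cdkn1c and Cdkn2a, then Cdk6. The ranges of Ccnd1, Cdkn1a and Cdkn1b over the 4 libraries overlapped, as did those of Ccnd3 and Cdkn2c and of Cdkn1c and Cdkn2a. None of these neighbours had a fixed order over all 4. These ranges pool both numbers: Ccnd1 exceeded Cdkn1b in both libraries numbered 1 and lay below it in both numbered 2.

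Whether extra miR-29a and miR-29b-1 in beta cells goes with a change of these RNAs is the question of the comparison between transgenic and wild-type islets. Of the 10 genes, 8 passed the filter on low values and were compared, and none was called. With genotype as the only term, limma on log2(FPKM + 1) called 0 of the 8 after Benjamini-Hochberg adjustment over all genes, and 0 of the 12716 genes compared (0.00%), of which 83 had an unadjusted p under 0.05. That fit counts the difference between library numbers as spread. Voom on the reads recovered from the FPKM, with library number as a second term, called 204 genes higher and 34 lower (1.60% and 0.267%, together 1.87%, of the genes compared), and again 0 of the 8. After the GC correction it called 0.637% higher and 0.236% lower, together 0.873%, and still 0 of the 8. That model leaves 1 residual degree of freedom per gene, so its p-values and intervals rest largely on variance shared across genes.

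Neither of the 2 compared genes with seed matches was called lower in transgenic islets. Such calls were rare among all compared genes. Voom fitted to genotype and number made them for 0.267%, or 0.236% once GC content was corrected. Limma with genotype only made them for 0.00%. The lack of a call for these 2 is therefore the usual outcome for a compared gene. For Ccnd2 the log2 fold change was 0.03 ± 0.29 with genotype only (standard error, n = 2 per group, limma adjusted p = 1.00) and 0.03 ± 0.09 with library number as a term (voom adjusted p = 0.919). With number as a term the 95% interval of the ratio of transgenic to wild type was 0.898 to 1.16. By number, on the log2(FPKM + 1) scale, Ccnd2 differed by 0.12 in the libraries numbered 1 and by -0.07 in those numbered 2. For Cdkn1a the log2 fold change was 0.17 ± 0.09 with number as a term (voom adjusted p = 0.370), with 0.12 and 0.20 within numbers 1 and 2, and 0.06 ± 0.09 after a correction for the GC content of genes.

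Over the 10704 compared genes with a 3' untranslated region of at least 50 bases, the median log2 difference on the log2(FPKM + 1) scale of those with a seed match was 0.02 for libraries numbered 1 and -0.01 for those numbered 2. For genes without a match it was 0.03 and 0.02.

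Of the compared genes without a match, Ccnd3 differed most in voom with number as a term. Its log2 fold change there was 0.20 ± 0.10 (voom adjusted p = 0.325, 95% interval of the ratio 0.996 to 1.32). Within numbers 1 and 2 Ccnd3 differed by 0.20 and 0.12 on the log2(FPKM + 1) scale, and by 0.04 ± 0.10 on the reads after the GC correction. After that correction Cdkn1c, Cdk4 and Cdkn2c differed more, by -0.25 ± 0.31, -0.10 ± 0.09 and -0.05 ± 0.14. Non-overlapping genotypes with the transgenic libraries higher were found in 1 of the 8 genes, against 12.2% of the genes compared, and with them lower in 0, against 9.03%. Acinar genes were also higher in transgenic islets, with 14 of the 16 compared called in voom with number as a term, against 1.60% of all genes. So were 12 of 16 immediate early genes, the first to respond to a stimulus, and 2 of 10 endothelial genes. After the GC correction 13 acinar, 11 immediate early and 0 endothelial genes were called higher, against 0.637% of all genes. Limma with genotype only, or with number as a term, called 0 genes, and so none of these. Their part in the values of Ccnd3 and Cdkn1a was not tested.

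For Ccnd1 the ratio of transgenic to wild type in that fit was 1.04 (95% interval 0.914 to 1.17), for Cdk4 0.991 (0.877 to 1.12) and for Cdkn1b 0.964 (0.851 to 1.09). For Cdkn2c it was 1.09 (0.893 to 1.32). Cdkn1c, with few reads, was the least certain, with a ratio of 0.960 and an interval of 0.617 to 1.49. No adjusted p from voom was below 0.325 for any of the 8.

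**Figure D3:**
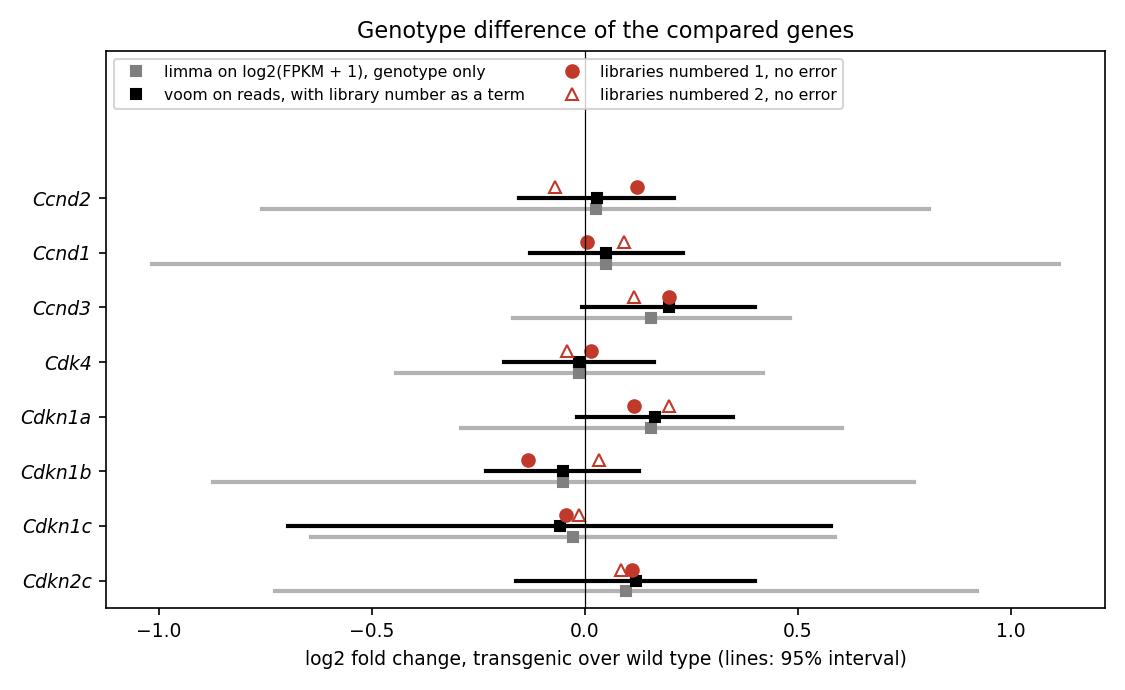
Log2 fold change of transgenic over wild type for the 8 compared genes: grey squares from limma on log2(FPKM + 1) with genotype only, black squares from voom on the reads with library number as a term, each with its 95% interval, and red symbols for the difference within number 1 (circles) and number 2 (open triangles) on the log2(FPKM + 1) scale. Every interval spans 0, and the black ones are narrower than the grey ones except for Cdkn1c.

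Ccnd1, Ccnd2, Cdkn1b and Cdkn2c differed more between the libraries numbered 2 and those numbered 1 than between genotypes, while Ccnd3 did not (log2 fold changes of -0.08 by number and 0.20 by genotype) and Cdkn1a had similar values (0.22 and 0.17). Voom with both terms, a test chosen after the data had been seen, called 4 of the 8 genes higher in the libraries numbered 2 (Ccnd2, Cdkn1a, Cdkn1b and Cdkn2c) and 1 lower (Ccnd1). The same fit called 21.6% of all compared genes higher and 22.0% lower, together 43.6%, so a large share of all islet genes moved with library number (44.4% after the GC correction, 20.7% higher and 23.7% lower). Of all 10 genes, with no filter, 5 were higher in both libraries numbered 2 than in both numbered 1, 3 were lower (Ccnd1, Cdk4 and Cdk6) and 2 overlapped (Ccnd3 and Cdkn2a). Over the genes compared, 34.4% were higher and 32.4% lower in this sense. Cdkn1c, 1 of the 5, passed the filter only through the libraries numbered 2, which fixed its direction among compared genes.

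Ccnd1 fell by a log2 fold change of 0.83 ± 0.09 in the libraries numbered 2 relative to those numbered 1 (voom adjusted p = 1.8e-10, n = 2 per number), a ratio of 0.581 in transgenic and 0.545 in wild-type islets. Ccnd2 rose by 0.53 ± 0.09 (voom adjusted p = 7.0e-06), with ratios of 1.35 in transgenic and 1.54 in wild-type islets. Limma on log2(FPKM + 1) with both terms gave much larger adjusted p, 0.00703 for Ccnd1 and 0.0204 for Ccnd2. D cyclin RNA thus held less cyclin D1 and more cyclin D2 in the libraries numbered 2.

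Of the inhibitors, Cdkn1b rose by 0.61 ± 0.09 (voom adjusted p = 3.4e-07) and Cdkn2c by 0.75 ± 0.14 (voom adjusted p = 2.9e-05). Limma with both terms gave adjusted p of 0.0146 for Cdkn1b and 0.0115 for Cdkn2c. Cdkn1a rose by 0.22 ± 0.09 (voom adjusted p = 0.0454). That call ended in limma on log2(FPKM + 1) (adjusted p = 0.107) and in voom with number as the only term (0.176). It also ended with any 1 library left out and number as the only term (log2 fold changes of 0.12 to 0.32). The call held in voom after the GC correction (0.30, adjusted p = 0.00307). It also held in voom with scaling without Ins2, Ins1 and Iapp (0.29, adjusted p = 0.0125). Ccnd2 lost its call without wild type 2 (0.49), in a fit with number as the only term and 1 library numbered 2. Cdkn1c had a log2 fold change of 0.63 ± 0.32 (voom adjusted p = 0.110), Cdk4 of -0.15 ± 0.09 (0.162) and Ccnd3 of -0.08 ± 0.10 (0.560). Cdkn2d, outside the set, rose by 0.41 ± 0.13 (voom adjusted p = 0.00943).

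**Figure D4:**
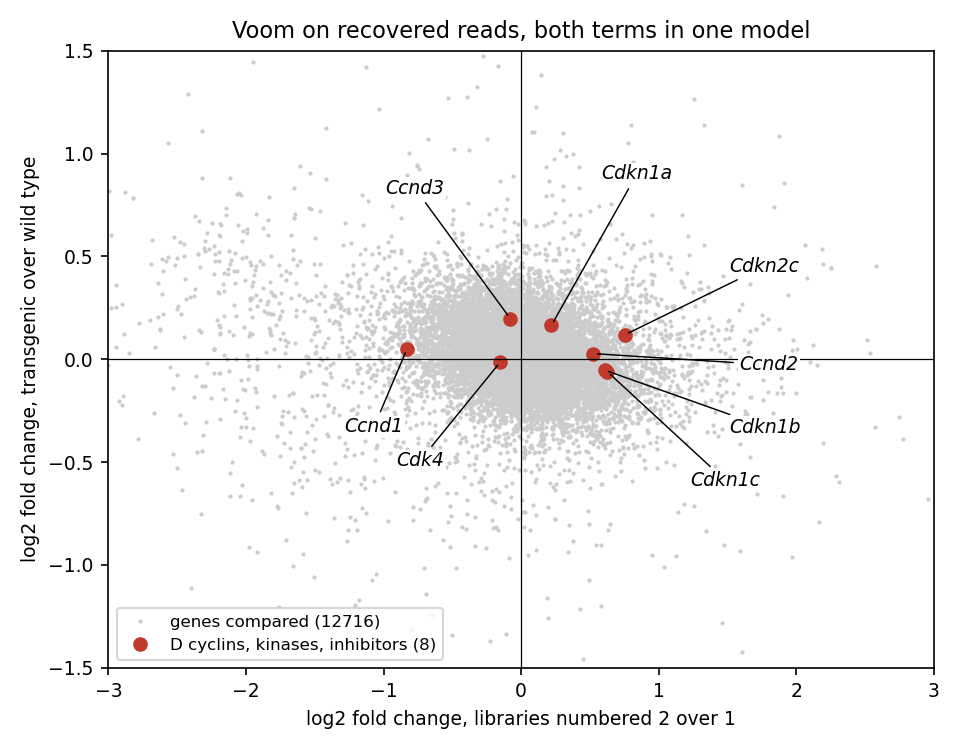
Log2 fold change of transgenic over wild type against log2 fold change of libraries numbered 2 over 1, from voom with both terms, for the genes compared (grey) and the 8 genes of the set (red); 79 genes lie outside the axes. The red points spread from -0.83 to 0.75 along the number axis and from -0.06 to 0.20 along the genotype axis.

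Other islet RNAs moved with library number as well. All 16 compared acinar genes and all 16 immediate early genes were called lower in the libraries numbered 2, with summed levels of 947 and 674 FPKM for the immediate early genes in transgenic 2 and wild type 2, against 4424 and 3175 FPKM in transgenic 1 and wild type 1. Ins2 took 25.5% and 26.6% of reads in transgenic 2 and wild type 2, against 12.8% and 20.1% in transgenic 1 and wild type 1. Of 10 endothelial marker genes 2 were called higher and 6 lower in number 2, of 7 duct genes compared 1 and 4, of 7 alpha cell genes 5 and 1, of 10 beta cell genes 5 and 1, and of 6 delta, PP and epsilon cell genes 4 and 0, against 21.6% and 22.0% of all genes. The delta, PP and epsilon cell genes summed to 15284 and 15212 FPKM in transgenic 2 and wild type 2, against 8540 and 8217 FPKM in transgenic 1 and wild type 1. Stellate and pericyte markers summed to 31.5 to 35.4 FPKM and macrophage markers to 68.1 to 82.8 FPKM over the 4 libraries, and lymphocyte markers to at most 8.15 FPKM, with Cd3e at 0 reads in all. The part of these cells or of the handling of islets in the values of the D cyclins and inhibitors was not tested.

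The wider machinery of entry into S phase was read from 4 lists, none of which holds a gene of the set. Of 36 partners in the G1 to S step, 23 were compared, and 1 was higher and 0 lower in transgenic islets (voom with number as a term, against 1.60% and 0.267% of all genes). The gene was E2f4, a repressor E2F of resting cells, with 15.7 and 15.8 FPKM in transgenic 1 and 2, against 11.4 and 11.4 FPKM in wild type 1 and 2 (log2 fold change 0.47 ± 0.10, voom adjusted p = 0.00554). After the GC correction its log2 fold change was 0.32 and the call ended (adjusted p = 0.0972 in voom). The genotypes of E2f4 did not overlap, as in 12.2% of the genes compared with transgenic higher. E2f4 had the smallest voom p of its list, so the lack of overlap is not separate evidence. Limma with genotype only did not call it. Number 2 over number 1 gave a voom adjusted p of 0.977.

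E2f1, an activator E2F, was at 4.39 and 4.89 FPKM in transgenic 1 and 2, against 3.77 and 3.85 FPKM in wild type 1 and 2 (voom adjusted p = 0.259). Rb1, the retinoblastoma gene, was at 4.69 and 4.50 FPKM in transgenic 1 and 2, against 4.91 and 4.80 FPKM in wild type 1 and 2 (voom adjusted p = 0.766). Ccne1, the gene of cyclin E1, was at 0.874 and 1.11 FPKM in transgenic 1 and 2, against 0.692 and 1.01 FPKM in wild type 1 and 2. Cdk2, the kinase that cyclin E binds, was too low to compare, with 76 to 89 reads per library. Lin52 and Lin37, subunits of the DREAM complex that represses cell cycle genes, had log2 fold changes of -0.38 ± 0.13 and 0.27 ± 0.13 (voom adjusted p = 0.126 and 0.298).

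Of 29 regulators of the D cyclins and inhibitors, 24 were compared, and 1 was called higher and 0 lower (against 1.60% and 0.267% of all genes). It was Akt1, a kinase of insulin and growth factor signalling, at 28.0 and 26.1 FPKM in transgenic 1 and 2, against 20.7 and 22.7 FPKM in wild type 1 and 2 (log2 fold change 0.32 ± 0.09, voom adjusted p = 0.0482). After the GC correction it was 0.11 and no longer called (voom adjusted p = 0.877). Gsk3a, a kinase that AKT inhibits, had a log2 fold change of 0.34 ± 0.10 (voom adjusted p = 0.0508). Men1, the menin gene, whose product maintains expression of Cdkn1b and Cdkn2c in mouse endocrine cells, was at 13.9 and 14.5 FPKM in transgenic 1 and 2, against 11.5 and 12.1 FPKM in wild type 1 and 2 (log2 fold change 0.27 ± 0.10, voom adjusted p = 0.132).

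Myc, a transcription factor gene that growth signals induce, was at 4.81 and 2.80 FPKM in transgenic 1 and 2, against 3.96 and 1.41 FPKM in wild type 1 and 2 (voom adjusted p = 0.0869). Bcl6, a transcriptional repressor of Ccnd2 in lymphocytes, was at 0.515 and 1.24 FPKM in transgenic 1 and 2, against 0.638 and 2.03 FPKM in wild type 1 and 2 (log2 fold change -0.59 ± 0.17, voom adjusted p = 0.0607). After the GC correction it was called lower, at -0.61 (voom adjusted p = 0.0337). It stood at the filter, with 89 to 352 reads. The Polycomb genes Bmi1 and Ezh2, whose products hold Cdkn2a silent, differed in level: Bmi1 was at 15.6 and 21.5 FPKM in transgenic 1 and 2, against 18.2 and 22.4 FPKM in wild type 1 and 2, while Ezh2 was too low to compare, with 99 and 98 reads in the transgenic and 73 and 122 in the wild-type libraries.

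Of 18 p53 genes other than Cdkn1a, 16 were compared, and 2 were called higher and 0 lower (against 1.60% and 0.267% of all genes). Plk3, a stress-responsive kinase gene, was at 32.1 and 8.65 FPKM in transgenic 1 and 2, against 21.8 and 7.06 FPKM in wild type 1 and 2 (log2 fold change 0.46 ± 0.10, voom adjusted p = 0.00705). Bbc3, the gene of the death-promoting protein PUMA, was at 13.5 and 9.34 FPKM in transgenic 1 and 2, against 9.86 and 6.81 FPKM in wild type 1 and 2 (log2 fold change 0.46 ± 0.11, voom adjusted p = 0.0193). After the GC correction both calls ended, at 0.25 and 0.17 (voom adjusted p = 0.348 and 0.792). Mdm2, the ubiquitin ligase gene that p53 itself induces, was at 13.0 and 9.31 FPKM in transgenic 1 and 2, against 13.8 and 10.7 FPKM in wild type 1 and 2 (voom adjusted p = 0.455). Ccng1, another p53 target, had a log2 fold change of -0.31 ± 0.10 (voom adjusted p = 0.0755) and Btg2, also an immediate early gene, of 0.29 ± 0.09 (0.0788).

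Most proliferation genes were too low to compare. Of 24 genes of replication and mitosis, 8 were compared. Limma with genotype only called 0 of them, as did voom with number as a term, before and after the GC correction. Over all genes compared, these 3 fits called 0.00%, 1.87% and 0.873%, so 0 of 8 is near that share. Mki67, the gene of the proliferation marker Ki-67, was at 0.470 and 0.587 FPKM in transgenic 1 and 2, against 0.441 and 0.395 FPKM in wild type 1 and 2, from 103 to 124 reads per library. Pcna, the DNA polymerase clamp gene, was at 21.0 and 17.2 FPKM in transgenic 1 and 2, against 20.0 and 15.9 FPKM in wild type 1 and 2 (voom adjusted p = 0.698). Rrm2, Mcm6 and Mcm2 had log2 fold changes of 0.44 ± 0.24, 0.22 ± 0.15 and 0.15 ± 0.14 (voom adjusted p of 0.379, 0.483 and 0.654).

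**Figure D5:**
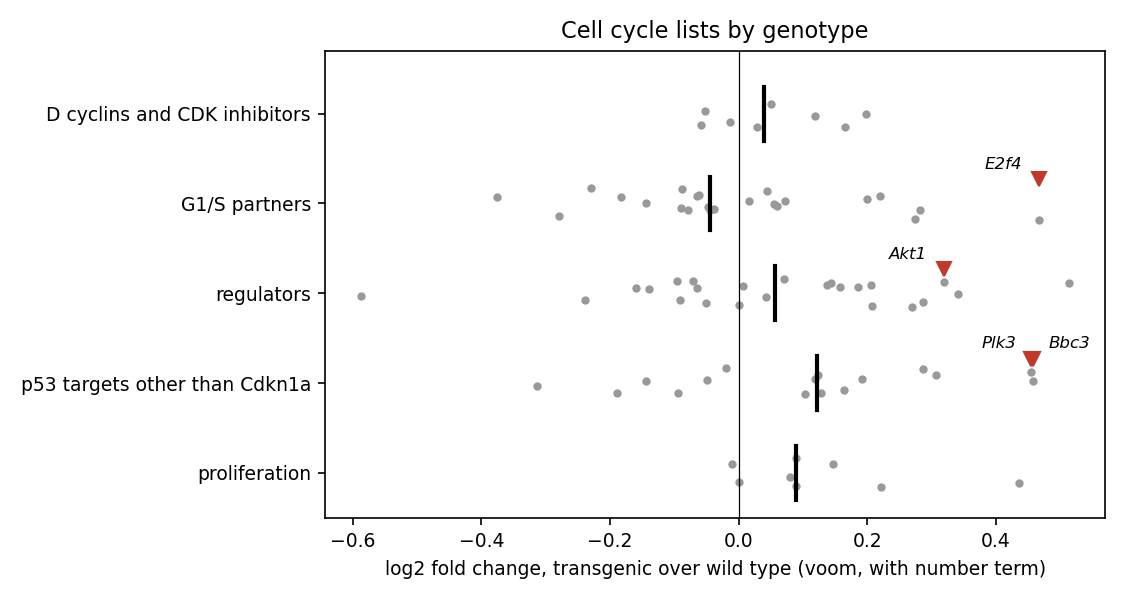
Log2 fold change of transgenic over wild type from voom with library number as a term, 1 point per compared gene of the set and of the 4 lists, with a bar at each median and a red triangle above each gene called at an adjusted p under 0.05. The medians lie between -0.04 and 0.12, and E2f4, Akt1, Plk3 and Bbc3 are the genes called.

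By list, the median log2 fold change with number as a term was 0.04 for the 8 genes of the set, -0.04 for the G1 to S partners, 0.06 for the regulators, 0.12 for the p53 genes and 0.09 for the proliferation genes, against 0.02 over all genes compared. After the GC correction the p53 median was -0.01.

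The genes whose centred log2(FPKM + 1) values over the 4 libraries lay closest to those of Ccnd2 were Fam173a, Ak1 and Syt11, at Euclidean distances of 0.0218, 0.0238 and 0.0295. Fam173a was at 51.2 and 69.7 FPKM in transgenic 1 and 2, against 46.5 and 72.7 FPKM in wild type 1 and 2. Closest to Cdkn1a were Fance, Efcc1 and Tmem164, at 0.0120, 0.0193 and 0.0222. These distances span 4 libraries only and are a description.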

How the data were processed

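Frozen islets were extracted with Trizol and sequenced from TruSeq libraries of total RNA, per the labels' protocols. HTSeq 0.6.0 and GRCm38 are named, per the submitters' processing notes. The aligner and strand setting are not given in the sources used here. FPKM and gene lengths were deposited by the authors. The product of FPKM and length was a whole multiple of 1 step in each library for 100% of nonzero values (tolerance 0.001), and the multiples served as reads, 21670854 to 27080907 per library. The totals implied by the step are 0.957 to 1.09 times these sums, a factor of unstated origin. Intervals and floors cover counting error only. The comparison kept the 12716 genes that reached an FPKM of 1 in 2 or more libraries. It used limma 3.58.1 under R 4.3.3 with a mean-variance trend on log2(FPKM + 1), a scale that understates folds of low genes, 2-sided, with Benjamini-Hochberg adjustment over these genes and a threshold of 0.05. Limma's voom used the recovered reads. The GC correction took from each library a lowess curve (span 0.3) on the GC content of genes in GENCODE M21. The scripts were tested on simulated counts with the same spread for all genes. These held no GC or scaling shift between genotypes, so they do not bear on those choices. Genes named are the whole set, 11 fixed partners and regulators, and the 4 genes of smallest voom p in each pathway list; other genes were named after their values were seen. The set, the lists and the number contrast were chosen with earlier results of these data known. Alternatives were the pseudocount, the filter, voom, library number as a term, GC correction, scaling without Ins2, Ins1 and Iapp, and leaving out each library.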

Additional observations from a re-analysis of the deposited data

How the results depend on the processing

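No gene of the set was called by genotype under any alternative run, but the counts over all genes depended on the model. Library number as a replicate block pairs libraries by number only, which the labels do not describe as a pairing; deviations from the group means of same-numbered libraries had an r of 0.775 across genes. Limma with the replicate block called 0 genes, voom with the replicate block 204 higher and 34 lower, the same with the GC curve removed 81 and 30, and that block with scaling without Ins2, Ins1 and Iapp 63 and 8. Removing the GC curve in the blocked fit turned Cdkn1b to 0.036 and Cdkn2c to -0.051. With 1 library left out, where the lone library is assumed to vary like the others, log2 fold changes of transgenic over wild type ranged from -0.37 to 0.46 for Ccnd1, -0.28 to 0.33 for Ccnd2, -0.10 to 0.075 for Cdk4, -0.38 to 0.28 for Cdkn1b, -0.18 to 0.12 for Cdkn1c and -0.21 to 0.40 for Cdkn2c, and libraries of numbers 1 and 2 are then unequal in number between genotypes; Ccnd3 stayed between 0.11 and 0.21 and Cdkn1a between 0.03 and 0.28. For number 2 over number 1, whose alternatives were chosen after seeing the data, limma called 1699 genes higher and 1796 lower, and voom with number as the only term 1731 and 1824. With a library left out the counts were 739 to 2118 and 888 to 2524, and those of the set 2 to 3 higher. Ccnd2 lost its call without wild type 2 (0.49, voom adjusted p = 0.0794), and Ccnd3 ranged from -0.20 to 0.042 with a library left out and was 0.025 with the GC curve removed. Cdk6 and Cdkn2a, with 11 to 46 reads per library, are limited by depth, and their log2 differences were 0.12 and -0.46 with a pseudocount of 0.1 and 0.02 and -0.19 with 1. The causes of these shifts were not tested.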

Other observations

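Lockd, a long noncoding RNA gene downstream of Cdkn1b on chromosome 6 (134929092 to 134956798), was at 0.127 and 0.255 FPKM in transgenic 1 and 2, against 0.138 and 0.253 FPKM in wild type 1 and 2, from 19 to 38 reads per library. Like Cdkn1b, it was higher in both libraries numbered 2, as were 34.4% of the genes compared. Lockd was below the filter, and its difference was not tested. Ccnd3-ps, a processed pseudogene, had 0 reads in both transgenic libraries, against 4 and 0 in wild type 1 and 2, so this copy of Ccnd3 took almost no reads. Both genes were looked up after the values of the set had been seen.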
